A study of Mus musculus with 23 samples.

Results

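Complement C3 and 8 related complement genes, C4b, C1ra, C1s1, Cfb, Cfp, C3ar1, C5ar1 and Serping1, were followed through 23 MC38 tumors by bulk RNA sequencing. These 9 genes are 9 of the 26869 genes in the table. C3 was chosen from its change with aPD1 in tumors of non-responder hosts among these same tumors, and the other 8 were chosen as complement genes related to it. All 9 had a match in the table, and all 9 had counts in every tumor, so none was lost to a filter on low values.

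MC38 is a mouse colon carcinoma line, and it was grown under the skin of F1 hosts bred from C57BL/6J and 6 Collaborative Cross strains, a panel of recombinant inbred mice with wild-derived and laboratory founders. The R (responder) hosts were C57BL/6J x CC001/UncJ, C57BL/6J x CC002/UncJ and C57BL/6J x CC075/UncJ, written here as CC001F1, CC002F1 and CC075F1. The NR (non-responder) hosts were C57BL/6J x CC036/UncJ, C57BL/6J x CC079/TauUncJ and C57BL/6J x CC080/TauUncJ, written as CC036F1, CC079F1 and CC080F1. All hosts were females of 8 to 12 weeks that received the same number of MC38 cells, and all carried 1 C57BL/6J genome and 1 Collaborative Cross genome. At a tumor size of 75 to 110 mm3 each host received 200 µg of the isotype control antibody 2A3 or of 29F.1A12, an antibody against PD-1 (aPD1), and tumors were taken 48 h later. There were 6 R isotype, 6 R aPD1, 6 NR isotype and 5 NR aPD1 tumors. Each line had 2 tumors per antibody, except CC080F1 with aPD1, which had 1. The labels give the line of a host but not its class, which was taken from the study's text. All tumors came from 1 cell line, and transcripts of the graft and of the host were counted together under each gene.

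Complement is a cascade of plasma proteins in which proteases cut C4 and C3, and C3 fragments then mark cells and recruit leukocytes. The classical pathway starts with C1q and its proteases C1r and C1s, while the alternative pathway amplifies C3 cleavage through factor B and properdin. The liver makes most circulating complement, and macrophages, fibroblasts and tumor cells also transcribe complement genes, several of which are known to respond to interferon-gamma.

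On GRCm38, with GENCODE vM21 gene models, C3 is at chr17:57203970-57228136, C4b at chr17:34728380-34743882 and Cfb at chr17:34856374-34862518, all on the minus strand. C1ra (chr6:124512405-124523443, plus strand), C1s1 (chr6:124530345-124542359, minus) and C3ar1 (chr6:122847138-122856161, minus) share chromosome 6. Cfp is at chrX:20925454-20931555, C5ar1 at chr7:16246743-16259540 and Serping1 at chr2:84765387-84775444, all on the minus strand. All are protein coding. Near-identical copies could take reads from C4b, C1ra and C1s1, but they held few. Over all tumors C4a held 656 counts against 38108 for C4b, C1rb 44 against 34227 for C1ra, and C1s2 62 against 17344 for C1s1. The gene Gm20547 overlaps Cfb on the same strand and held 754 counts against 69926.

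Promoter sequences from RefSeq on GRCm38.p6, from 250 bases before to 50 bases after the start, were held for 6 of the 9 genes. The 3 shown carry the contrast described below, in which C3 and Cfp varied together over the tumors and C1ra did not vary with them. Capitals mark matches, on either strand, to 4 motifs. These were the interferon-gamma activated site TTCNNNGAA, the core of the interferon-stimulated response element GAAANNGAA, C/EBP TTGCNNAA and the NF-kB consensus.
C3, chr17:57228087-57228386, minus strand: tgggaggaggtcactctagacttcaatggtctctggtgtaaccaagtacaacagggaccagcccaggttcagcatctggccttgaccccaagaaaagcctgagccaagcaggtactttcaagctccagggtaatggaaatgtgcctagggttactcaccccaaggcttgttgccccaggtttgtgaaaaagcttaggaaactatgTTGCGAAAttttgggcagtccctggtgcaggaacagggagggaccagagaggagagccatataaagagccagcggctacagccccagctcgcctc
Cfp, chrX:20931506-20931805, minus strand: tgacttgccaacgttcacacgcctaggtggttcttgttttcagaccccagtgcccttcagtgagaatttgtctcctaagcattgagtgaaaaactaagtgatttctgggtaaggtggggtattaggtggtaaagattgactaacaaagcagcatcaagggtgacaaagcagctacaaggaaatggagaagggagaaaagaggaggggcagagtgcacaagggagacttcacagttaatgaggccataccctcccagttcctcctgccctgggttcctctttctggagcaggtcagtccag
C1ra, chr6:124512371-124512670, plus strand: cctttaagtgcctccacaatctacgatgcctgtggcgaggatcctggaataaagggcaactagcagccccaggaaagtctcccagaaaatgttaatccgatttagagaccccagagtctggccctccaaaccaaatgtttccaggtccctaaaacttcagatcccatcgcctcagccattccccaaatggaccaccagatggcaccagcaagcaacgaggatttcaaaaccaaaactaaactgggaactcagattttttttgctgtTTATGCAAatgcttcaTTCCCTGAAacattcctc
The C3 window held 1 C/EBP match, from base -45 to -38 relative to the start. The Cfp window held none of the 4 motifs. The C1ra window held 1 interferon-gamma activated site and 1 C/EBP match, both after the start. Of the other windows held, C1s1 had a C/EBP match in 1 of its 2 promoters, C5ar1 had 1 response element core, and C3ar1 had none. Among 32817 promoter windows of the same length, 8.29% held the interferon-gamma activated site, 8.55% the response element core, 8.46% the NF-kB motif and 10.8% the C/EBP motif. A match is a run of letters and not a measured site, and these letters being absent from a window says nothing about a factor.

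Library totals ran from 14494014 to 71868253 counts with a median of 42327589. They fell into 6 shallow libraries of at most 18354585 counts and 17 deep ones of at least 37242363. Of the shallow libraries 2 were R and 4 NR, so class and depth were partly mixed, and each called class result is given for the deep libraries too. No fit was made within the 6 shallow libraries. The defining hepatocyte markers were near 0, with Alb at 0 in 18 tumors and at most 4 counts in any, and Fgb at 0 in 14 tumors. The MC38 marker Shisal2b was counted in all 23 tumors. The epithelial genes Krt8, Krt18 and Epcam were low, at most 2.81 CPM per kilobase of exon, that is counts scaled to the library total and exon length.

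On the same scale of CPM per kilobase of exon, the receptor for the C3a fragment, C3ar1, had the highest median level over the 23 tumors at 29.7. Properdin, Cfp, had a median of 24.1 and factor B, Cfb, of 20.1. C5ar1, the receptor for C5a, was at 11.6, C1ra at 11.2 and C3 at 9.71. C4b at 5.81, the C1 inhibitor Serping1 at 5.31 and C1s1 at 5.09 were the lowest. All values from here on are normalized counts, that is counts divided by the DESeq2 size factor of the library, and they compare tumors for 1 gene, not genes with each other.

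The members differed widely in how much they varied. C4b spanned 11.3-fold between the lowest and highest tumor, C3 10.0-fold and Serping1 9.85-fold. Cfb spanned 7.04-fold, C1s1 4.69-fold, C3ar1 3.89-fold, Cfp 3.68-fold and C5ar1 2.98-fold. C1ra spanned 1.91-fold, from 983 to 1877.

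**Figure D1:**
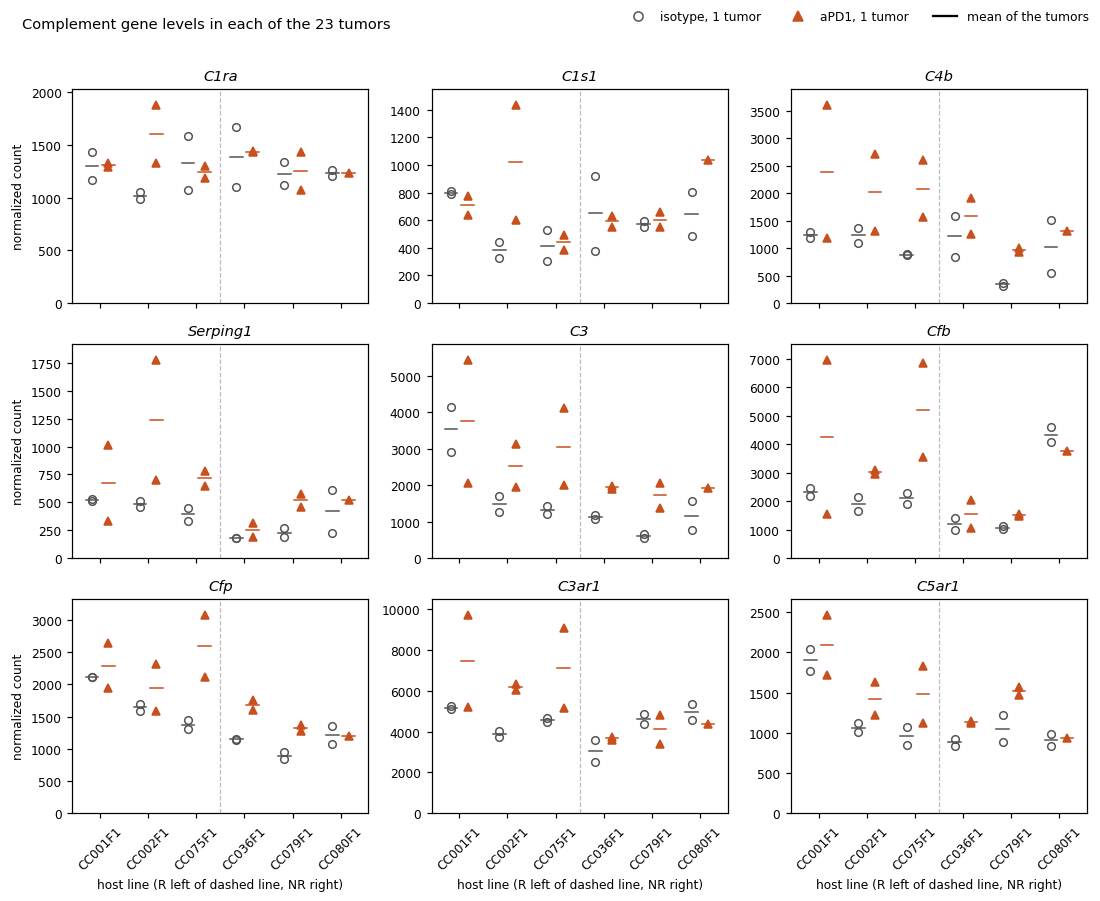
Normalized counts (y axis, from 0) of the 9 complement genes in each of the 23 tumors, by host line (x axis, R lines left of the dashed line and NR lines right), with isotype tumors as open circles, aPD1 tumors as triangles and the mean of each line and antibody as a short bar. C3 runs from 543 in a CC079F1 isotype tumor to 5441 in a CC001F1 aPD1 tumor, while C1ra stays between 983 and 1877 in all lines.

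The first comparison asked whether complement transcripts differed between tumors of R and NR hosts. C3, the central component, C1 inhibitor Serping1, properdin Cfp and both anaphylatoxin receptors were higher in R tumors, by 1.93-fold for C3, 1.88-fold for Serping1, 1.58-fold for Cfp, 1.36-fold for C5ar1 and 1.35-fold for C3ar1. C4b, Cfb, C1ra and C1s1 did not pass the test. With antibody as a term in a fit to all 23 tumors, DESeq2 called 5 of 9 members higher in R and 0 lower, while 7.66% of 17643 genes tested were called higher and 6.78% lower. At an unadjusted p under 0.05, 6 members were higher and 0 lower, among 4999 genes in either direction. With edgeR 4 were called higher and 0 lower, among 1765 genes. The median log2 difference of the 9 members was 0.47, and that of all genes tested was 0.0. Fewer cells of a type and less RNA per cell cannot be told apart in bulk tumors. Because hosts of a line were treated as independent in this fit, counts summed per line were tested too. Then 2 members, Cfp and C3ar1, passed, among 1207 genes in either direction.

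C3 was at a lowest, median and highest of 1209, 1559 and 4159 in R isotype tumors and of 543, 916 and 1574 in NR isotype tumors. With aPD1 it was at 1951, 2597 and 5441 in R tumors, and the 5 NR tumors were at 1906, 1991, 2074, 1369 and 1934. The highest tumors were R and the lowest NR at each antibody, but the classes overlapped. The log2 difference over all tumors was 0.95 ± 0.25 (SE; DESeq2 adjusted p = 0.00355). In the deep libraries it was 0.79 with a DESeq2 adjusted p of 0.0586. The NR tumors in this value also entered the contrast from which C3 was chosen.

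Without CC001F1, the line with the highest C3, the difference was 0.56 and still called. The other 5 lines left out in turn gave 0.79 to 1.11, each called. When limma took line as a random effect, or when counts were summed per line, C3 was not called.

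Cfp, which stabilizes the alternative pathway convertase, differed in the same direction with less spread. R isotype tumors ran from 1309 through a median of 1642 to 2112, and NR isotype tumors from 839 through 1111 to 1348. R aPD1 tumors ran from 1586 through 2217 to 3082, and the NR aPD1 tumors were at 1609, 1759, 1364, 1275 and 1201. Only the margins of the classes overlapped: at either antibody, the lowest R tumor was below the highest NR tumor. The log2 difference was 0.66 ± 0.11 (SE; DESeq2 adjusted p = 2.38e-07) over all tumors and 0.58 in the deep libraries (adjusted p = 0.000977). Cfp was called in all 15 alternative fits of this comparison and in all 23 fits without 1 tumor.

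Serping1, which inhibits C1r and C1s, ran from 333 through 486 to 528 in R isotype tumors and from 180 through 208 to 612 in NR isotype tumors. In R aPD1 tumors it ran from 331 through 740 to 1777, and the NR aPD1 tumors were at 310, 185, 462, 571 and 524. The NR isotype group was low apart from 1 CC080F1 tumor at 612. The log2 difference was 0.91 ± 0.26 (SE; DESeq2 adjusted p = 0.00652) and 0.92 in the deep libraries (adjusted p = 0.0699). It was not called without CC002F1, at 0.74, or without CC036F1, at 0.62.

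The receptors differed less. For C5ar1 the log2 difference was 0.44 ± 0.14 (SE; DESeq2 adjusted p = 0.0162), and 0.42 in the deep libraries (adjusted p = 0.0733). Without CC001F1, whose 4 tumors lay between 1721 and 2466, it was 0.16 and not called. The C5ar1 call was kept in 8 of 15 alternative fits, and it was also lost with edgeR, with line as a random effect, on line sums, and without CC036F1 or CC080F1. For C3ar1 the difference was 0.44 ± 0.15 (SE; DESeq2 adjusted p = 0.0293), and 0.60 in the deep libraries (adjusted p = 0.00444). C3ar1 lost its call without CC001F1 (0.37), CC036F1 (0.27) or CC075F1 (0.43), and without any 1 of 3 NR aPD1 tumors, both of CC036F1 and that of CC080F1.

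The classical proteases and the cleaved proteins of both pathways gave other values. C1ra, whose product activates C1s, had a log2 difference of -0.01 with a 95% interval of -0.19 to 0.18, and C1s1 of -0.08 with an interval of -0.52 to 0.36. C4b, the classical counterpart of C3, had 0.55 with an interval of 0.04 to 1.07 (DESeq2 adjusted p = 0.148). Cfb had 0.47 with an interval of -0.17 to 1.11 (DESeq2 adjusted p = 0.371). C4b was called without the CC036F1 isotype tumor of replicate 2, at 0.70, and without the line CC036F1, at 0.84, and Cfb without the line CC080F1, at 1.16.

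**Figure D2:**
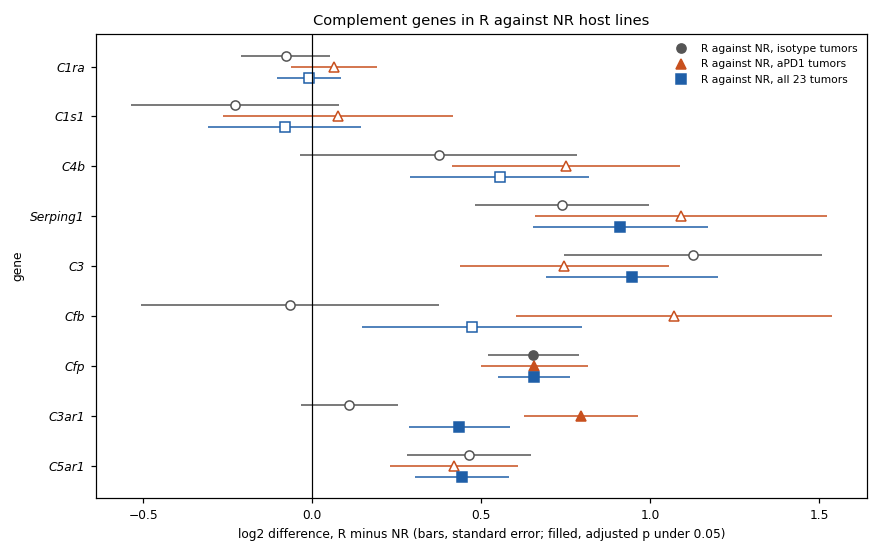
Log2 difference, R minus NR (x axis), of the 9 complement genes (y axis) in isotype tumors (circles), aPD1 tumors (triangles) and all tumors (squares), with bars for the standard error and filled symbols where the DESeq2 adjusted p was under 0.05. Cfp is filled in all 3 comparisons at 0.65, 0.66 and 0.66, and C1ra lies near 0 in all 3.

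The next comparisons took the classes apart by antibody. In isotype tumors, Cfp was the 1 member of 9 called higher in R and 0 were called lower, against 2.29% of 14995 genes called higher and 3.24% called lower. At an unadjusted p under 0.05, 4 members were higher and 0 lower, among 3285 genes in either direction, and edgeR called 0 members and 30 genes. The Cfp log2 difference was 0.65 ± 0.13 (SE; DESeq2 adjusted p = 0.000404), and 0.51 in the deep libraries (adjusted p = 0.169). C3 had 1.13 ± 0.38 (SE; DESeq2 adjusted p = 0.0535), from NR isotype tumors that also entered the contrast on which it was chosen, and Serping1 had 0.74 ± 0.26 (adjusted p = 0.0636). Of the 9 members, 0 had every R tumor above every NR tumor, against 0.572% of the 12055 genes whose normalized count averaged at least 100.

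Single tumors moved these calls. Without the CC080F1 isotype tumor of replicate 1, C3 at 1.32, Cfp and Serping1 at 1.16 were called, and without the CC075F1 isotype tumor of replicate 2, C3, Cfp and C5ar1 were called. The whole line CC080F1, which had the highest isotype Cfb, was left out after seeing the data. Then the Cfb difference went from -0.06 to 0.89 and was called (DESeq2 adjusted p = 4.19e-10), among 1588 genes in either direction.

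In aPD1 tumors, Cfp and C3ar1 were higher in R. The 6 R tumors had C3ar1 at 5140 to 9721 with a median of 6190, and the NR tumors were at 3743, 3592, 3410, 4802 and 4363. Every R tumor was above every NR tumor, which held for 1 of 9 members and for 3.24% of the same 12055 genes. The C3ar1 difference was 0.80 ± 0.17 on the log2 scale (SE; DESeq2 adjusted p = 0.000182), against 0.11 ± 0.14 (adjusted p = 0.724) in isotype tumors; the difference between these values was not tested. For Cfp it was 0.66 ± 0.16 (SE; DESeq2 adjusted p = 0.0012). In all, 2 of 9 members were called higher and 0 lower, against 5.94% of 17161 genes higher and 1.99% lower. At an unadjusted p under 0.05, 7 members were higher and 0 lower, among 3561 genes in either direction. With edgeR 2 were called higher and 0 lower, among 560 genes. Both calls were lost when limma took line as a random effect, with an adjusted p of 0.119 for Cfp and 0.0851 for C3ar1.

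Serping1 at 1.09 ± 0.43, Cfb at 1.07 ± 0.47, C4b at 0.75 ± 0.34 and C3 at 0.75 ± 0.31 were not called in aPD1 tumors, with DESeq2 adjusted p between 0.105 and 0.174. In the deep libraries C3ar1 was at 0.94, Cfp at 0.64 and C3 at 0.75, and all 3 were called. Without the CC001F1 aPD1 tumor of replicate 1, 4 members were called, Cfb, Cfp, C3ar1 and Serping1, and Cfb at 1.44 was called too without the CC080F1 aPD1 tumor. Without the line CC036F1, C3ar1 at 0.72 was not called.

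Macrophages are a known source of properdin and of C3ar1, so the summed level of 6 macrophage markers was set beside these results. It was 85990 to 143800 in R aPD1 and 63930 to 87600 in NR aPD1 tumors, and 51860 to 107900 in R isotype and 46440 to 99390 in NR isotype tumors. The summed level of 5 interferon response genes was 46670 to 91010 in R aPD1 and 24150 to 55230 in NR aPD1 tumors, and all 5 were called higher in R over all tumors. In isotype tumors it was 35430 to 59520 in R and 22040 to 44220 in NR. The 4 T cell markers summed to 700 to 2579 in R aPD1 and 302 to 740 in NR aPD1 tumors, and to 521 to 1364 in R isotype and 206 to 1059 in NR isotype tumors. The 5 neutrophil markers, most of whose sum was Csf3r, summed to 472 to 1710 in R aPD1 and 299 to 570 in NR aPD1 tumors, and to 394 to 534 in R isotype and 174 to 458 in NR isotype tumors. Csf3r was called higher in R over all tumors (log2 difference 0.95), as were the macrophage genes Adgre1 (0.43), Cd68 (0.37) and Csf1r (0.33), and the fibroblast genes Pdgfra (-0.51) and Dcn (-0.26) were called lower. Group means of other genes on these lists differed in direction. Col1a1, Bgn and Postn were higher in R at either antibody, with Col1a1 at 9587 against 6341 in aPD1 tumors. Mrc1 was lower in R, at 6055 against 6596 in isotype and 5827 against 7484 in aPD1 tumors. Lyz2 was higher at either antibody, Apoe with aPD1 only, and Lum was lower. The other neutrophil genes were low in all groups and differed in direction too. S100a8 and Retnlg were lower in R at either antibody. With aPD1, S100a9 was at 8.0 in R against 40.39 in NR tumors, and with isotype at 6.31 against 4.41. Cxcr2 was higher in R at either antibody. The part of these cells and signals in the complement values was not tested.

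The effect of the antibody was tested in the 12 tumors of R lines, which the choice of C3 did not use. C4b was 1.94-fold and C3ar1 1.52-fold higher 48 h after aPD1 than after isotype. DESeq2, with line as a term, called these 2 of 9 members higher and 0 lower, against 4.85% of 15701 genes called higher and 0.408% called lower. At an unadjusted p under 0.05, 7 members were higher and 0 lower, among 2722 genes in either direction. All 9 estimates were above 0, with a median of 0.61 on the log2 scale against -0.01 for all genes tested. With edgeR 0 members and 0 of all genes passed, and 7 members and 2621 genes were under an unadjusted p of 0.05.

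C4b, which carries the classical pathway from C1s to C3, was at 873 to 1364 with a median of 1145 in R isotype tumors and at 1179 to 3609 with a median of 2084 in R aPD1 tumors. Of the R aPD1 tumors, 4 were above every isotype tumor and those at 1179 and 1315 were not. The log2 change was 0.95 ± 0.29 (SE; DESeq2 adjusted p = 0.0249), and 1.03 in the deep libraries (adjusted p = 0.0724). The C4b call was kept in 4 of the 12 fits without 1 tumor. It was lost without either isotype tumor of CC001F1 or of CC075F1, without replicate 2 of CC002F1 isotype, without replicate 2 of CC001F1 aPD1, and without replicate 1 of CC002F1 or CC075F1 aPD1, where C3ar1 was the 1 member called.

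C3ar1 was at 3726 to 5233 with a median of 4573 in R isotype tumors and at 5140 to 9721 with a median of 6190 in R aPD1 tumors. The groups overlapped by the CC001F1 and CC075F1 tumors at 5189 and 5140. The log2 change was 0.61 ± 0.15 (SE; DESeq2 adjusted p = 0.00312), 0.72 in the deep libraries, and it was called in all 12 fits without 1 tumor.

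C3 in R lines had a log2 change of 0.68 ± 0.30 (SE; DESeq2 adjusted p = 0.21), Cfb 0.94 ± 0.36 (adjusted p = 0.108), Serping1 0.85 ± 0.33 (adjusted p = 0.125), Cfp 0.42 ± 0.15 (adjusted p = 0.0811) and C5ar1 0.39 ± 0.14 (adjusted p = 0.0979). All 5 were called without the whole line CC001F1, together with C4b and C3ar1, 7 of 9 members. In that fit 909 genes were called in either direction, against 826 with all R lines. The same 7 members were called when only 1 CC001F1 aPD1 tumor, replicate 1, was left out, and no count of all genes is given for that fit. In that tumor C3 was at 2071, Cfb at 1549 and Serping1 at 331, and in the other CC001F1 aPD1 tumor they were at 5441, 6965 and 1013. The tumor of replicate 1 also had the highest skeletal muscle markers of all 23, with a sum over 4 genes of 12670 and Acta1 at 4942, against Acta1 at 7 in the other. The next highest Acta1 values were 2149 in CC001F1 isotype replicate 1, 1836 in CC080F1 isotype replicate 2 and 1326 in CC075F1 aPD1 replicate 1. C3 in these tumors was at 4159, 761 and 4117. The part of muscle tissue in the complement values was not tested. Cfp, at 0.50, was called without the CC002F1 aPD1 tumor of replicate 2 as well. C5ar1 was called in the deep libraries, which held the CC001F1 aPD1 tumor of replicate 1. Without CC002F1 no member passed, among 210 genes called in either direction, and 6 members were under an unadjusted p of 0.05. Without CC075F1, C3ar1 alone of the members passed, among 395 genes.

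In NR lines the antibody changes are given as a description, since C3 was selected on them. C3 was at 1195 and 1071 in CC036F1 isotype tumors and at 1906 and 1991 with aPD1. In CC079F1 it was at 648 and 543 with isotype and at 2074 and 1369 with aPD1, and in CC080F1 at 1574 and 761 with isotype and at 1934 with aPD1. Within each NR line the aPD1 tumors were above the isotype tumors. The log2 change over NR lines, the value on which C3 was chosen, was 1.05. Markers of other tissue were higher in some of these aPD1 tumors. The lymph node genes Glycam1 and Ccl21a were at 287 and 186 in the CC079F1 aPD1 tumor of replicate 1 and at 289 and 334 in the CC080F1 aPD1 tumor, and their sum was at most 5.16 in NR isotype tumors. The 4 B cell markers summed to at most 218 in NR isotype tumors and to 137 to 3142 in NR aPD1 tumors. The adipocyte gene Adipoq was at 87 and 123 in the same tumors of CC079F1 and CC080F1 and at most 71 in NR isotype tumors. Such markers were not confined to NR aPD1 tumors. In the R tumor of CC002F1 isotype replicate 1, Glycam1 was at 383, Ccl21a at 232 and Adipoq at 127. The B cell sum reached 972 in R isotype tumors. That CC002F1 tumor entered the isotype class comparison and the antibody comparison in R lines. The part of lymph node or fat tissue in the complement values was not tested.

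Line by line, the mean log2 change of C3 was largest in CC079F1 (1.51), with CC080F1 at 0.82 and CC036F1 at 0.78. In R lines it was 0.75 in CC002F1 and 1.13 in CC075F1. In CC001F1, where isotype tumors were already at 4159 and 2908 and aPD1 tumors at 2071 and 5441, it was -0.05.

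C4b and Serping1 had mean log2 changes above 0 in all 6 lines, from 0.42 to 1.51 for C4b and from 0.153 to 1.197 for Serping1. C5ar1 was above 0 in all 6 as well, from 0.04 to 0.59. Cfb and Cfp were above 0 in 5 of 6 lines, with CC080F1 at -0.20 for Cfb and at -0.01 for Cfp. The shares of all genes above 0 in as many lines were not counted, and CC080F1 had 1 aPD1 tumor, so these are descriptions. C3ar1 was at 0.46, 0.68 and 0.58 in the R lines CC001F1, CC002F1 and CC075F1, and at 0.29 in CC036F1, -0.19 in CC079F1 and -0.18 in CC080F1 among NR lines. C1ra was between -0.07 and 0.08 in 5 lines and at 0.63 in CC002F1, where a single tumor reached 1877. C1s1 was highest in CC002F1 at 1.29 and lowest in CC001F1 at -0.18.

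**Figure D3:**
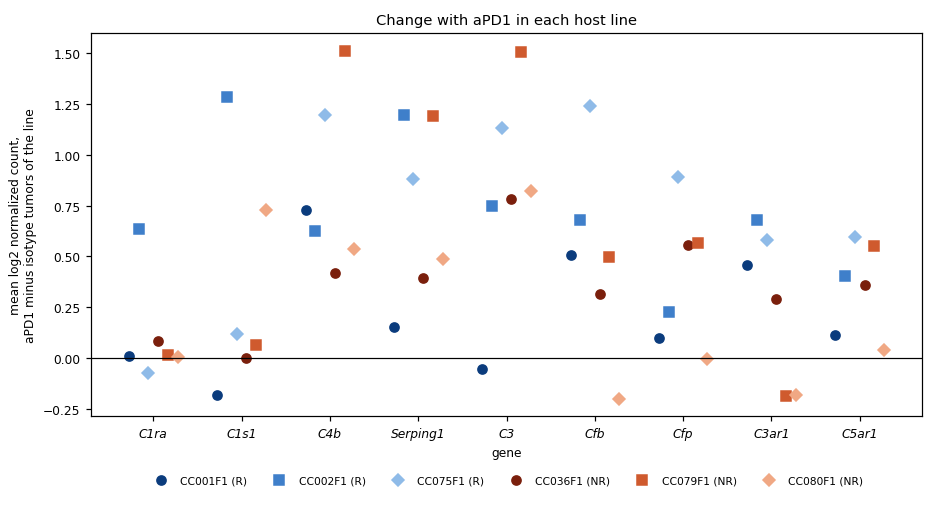
Mean log2 normalized count of aPD1 minus isotype tumors (y axis) for the 9 complement genes (x axis), with 1 symbol for each host line (blue, R lines; red, NR lines; 2 tumors per antibody, except 1 CC080F1 aPD1 tumor). C3 lies at -0.05 in CC001F1 and between 0.75 and 1.51 in the other lines, and C3ar1 is below 0 in CC079F1 and CC080F1.

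Beside these changes, the summed interferon response genes had medians of 40590 in R isotype and 68820 in R aPD1 tumors, and of 27530 in NR isotype and 34580 in NR aPD1 tumors. All 5 were called higher with aPD1 in R lines. The macrophage sum had medians of 94650 and 91740 in R and of 79960 and 72740 in NR tumors, isotype first. Most of that sum was Lyz2 and Apoe, and single macrophage genes differed from it. Adgre1 was higher with aPD1 in each R line, by a mean log2 change of 0.45 in CC001F1, 0.41 in CC002F1 and 0.41 in CC075F1. Cd68 was at 0.35, 0.59 and 0.61 in the same lines, and DESeq2 called both genes higher in R lines. Csf1r and Apoe had mean log2 changes above 0 in each R line. Lyz2 was at -0.20 in CC001F1, 0.81 in CC002F1 and 0.37 in CC075F1, and Mrc1 at -0.21, 0.19 and -0.15. The part of macrophages in the complement values was not tested.

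A further test asked whether levels differed among the 6 host lines, with antibody as a term. In this likelihood ratio test 6 of 9 members passed, against 16% of 19192 genes. C5ar1 (DESeq2 adjusted p = 4.4e-09), Cfp (3.21e-08), Cfb (2.2e-05), C3 (6.32e-05), Serping1 (0.000573) and C4b (0.022) were called. C3ar1 was at 0.0599, C1s1 at 0.477 and C1ra at 0.965. C4b lost its call in the deep libraries (adjusted p = 0.488) and C3 was at 0.0557 there. C4b also lost it in 5 of 23 fits without 1 tumor, those without replicate 2 of CC001F1, CC002F1 or CC079F1 isotype, replicate 1 of CC079F1 isotype (0.158, the highest) or replicate 2 of CC079F1 aPD1. C3ar1 passed in 11 of these 23 fits, and C1s1 in 1 of them, without replicate 1 of CC002F1 aPD1 (0.0121).

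The lines did not fall in 1 order for all genes. For C3 the line mean was highest in CC001F1 at 3645 ± 1473 (SD, n = 4), followed by CC075F1 at 2185 ± 1330, CC002F1 at 2011 ± 794, CC036F1 at 1541 ± 475, CC080F1 at 1423 ± 601 (n = 3) and CC079F1 at 1158 ± 712. Each neighbor in this order differed by less than the larger SD of the pair. These means take all tumors of a line together, and with each antibody weighted equally CC080F1, with 1 aPD1 tumor, was at 1551 and CC036F1 at 1541.

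Cfb, the protease of the alternative pathway convertase, was highest in an NR line, CC080F1, with tumors at 4600 and 4067 for isotype and 3764 for aPD1. In the other NR lines it did not exceed 2024, and CC080F1 aside the R isotype tumors (1667 to 2453) were above the NR isotype tumors (990 to 1417). C5ar1 was highest in CC001F1 at 2000 ± 341, above all tumors of CC036F1, CC079F1 and CC080F1, whose highest was 1566. Serping1 was lowest in CC036F1 at 215 ± 63.5 and highest in CC002F1 at 861 ± 619, where 1 aPD1 tumor was at 1777. C4b was lowest in CC079F1, with isotype tumors at 318 and 361.

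Over the 23 tumors, the members most like C3 were Cfp (Spearman rho 0.89, Pearson r 0.91) and C5ar1 (0.76, 0.75), followed by Serping1 (0.68, 0.68) and C4b (0.68, 0.85), on the log2 scale. C1ra (0.07, 0.12) and C1s1 (0.32, 0.30) were the least like C3, although C1ra and C1s1 went with each other (0.58, 0.64). These points share host lines, antibodies and library depth, and the correlations are descriptions. Among 12055 genes, those most like C3 were Mefv (rho 0.94), which encodes pyrin, then Cfp, Fcho1 (0.86), Ugcg (0.85), the ceramide glucosyltransferase, and Klf13 (0.85), a transcription factor.

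The other members had other nearest genes. They were Tgtp1, an interferon-inducible GTPase, for Cfp (rho 0.95), Ms4a4c for Cfb (0.95), Xdh, xanthine dehydrogenase, for C4b (0.88), and Phyh for Serping1 (0.92). C3ar1 was most like Cd180 (0.89), a receptor of B cells and macrophages, and C5ar1 most like the scavenger receptor Msr1 (0.87). For C1ra and C1s1 the highest values were lower, with Pdlim7 at 0.77 and Ssh1 at 0.72.

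Against the mean log2 level of the interferon response genes, each gene weighted equally, Cfp (rho 0.84) and C3 (0.71) were highest. Serping1 (0.69), C4b (0.66), C3ar1 (0.64), Cfb (0.61) and C5ar1 (0.53) followed, and C1ra (0.31) and C1s1 (0.21) were lowest. Against the mean log2 level of the macrophage markers C3ar1 was at 0.87 and Cfb at 0.71, and the others were at 0.54 or below. Against the mean log2 level of the fibroblast markers all 9 lay between -0.22 and 0.50.

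**Figure D4:**
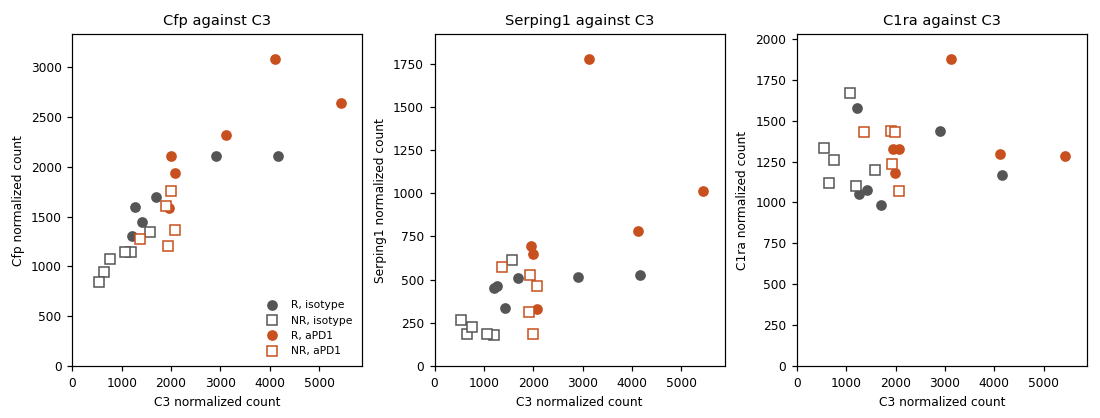
Normalized counts of Cfp, Serping1 and C1ra (y axes, from 0) against C3 (x axis, from 0), with 1 point per tumor (filled circles, R; open squares, NR; gray, isotype; red, aPD1; 23 tumors). Cfp goes up with C3 (rho 0.89), Serping1 does so with more spread (0.68) and C1ra does not (0.07).

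The rest of the pathway was read from a list of 52 complement genes that includes the 9 members. Of the 25 listed genes outside the members with an adjusted p, 7 were called higher and 3 lower in R over all tumors, beside 7.66% and 6.78% of all genes tested, and their median log2 difference was -0.04. The 6 of largest size were Itgax (0.75 ± 0.18), Clu (-0.73 ± 0.17), Colec12 (-0.73 ± 0.25), C2 (0.73 ± 0.22), Itgb2 (0.71 ± 0.13) and C1qb (0.65 ± 0.14), all on the log2 scale with SE. C1qb is a chain of C1q, C2 is the protease that pairs with C4b, and Itgb2 with Itgax forms complement receptor 4 on myeloid cells. Clu, clusterin, restrains the terminal complex, and Colec12 is a scavenger collectin, and both were lower in R.

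By stage, 4 of the 8 classical genes with an adjusted p were called higher in R over all tumors and 0 lower, all outside the members. Of the alternative pathway and C3, 2 of 4 were called higher, and of the receptors 5 of 8. Of 8 regulators 1, Serping1, was called higher and 1, Clu, lower. Of 3 lectin pathway genes 2 were called lower, and of 3 terminal genes 0 were called in either direction. With aPD1 in R lines, 7 of 24 listed genes outside the members were called higher and 1 lower, beside 4.85% and 0.408% of all genes tested, among them C2 at 0.99 ± 0.25 and C1qb at 0.50 ± 0.12. The near-identical copy C4a had a log2 difference between classes of -0.31 ± 0.31 (DESeq2 adjusted p = 0.582), and C1rb and C1s2 had too few counts for an adjusted p.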

How the data were processed

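Expected counts per gene were deposited for 23 bulk tumor libraries. Per the study's methods, the authors made poly(A) libraries, aligned reads with Bowtie 1.2.3 (named in the submitters' processing notes too) to founder transcriptomes on GRCm38, and estimated counts over founder haplotypes with gbrs. Shared reads are split between genes and haplotypes, so values of near-identical genes are less certain than their errors. Of the values 16.95% were not whole, and they were rounded, which moved no library total by more than 67 counts. GENCODE vM21 gave names and coordinates for 26681 of 26869 identifiers, and the other 188 held 0.099% of counts.

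DESeq2 1.42.0 with default options (R 4.3.3) was fitted to genes with at least 5 counts over the libraries of a fit. A gene was called when its p, adjusted by Benjamini-Hochberg over all genes of the fit, was under 0.05. Class was tested with antibody as a term or within an antibody, antibody with line as a term, and line by likelihood ratio. Alternatives used edgeR 4.0.16, limma 3.58.1, TMM scaling, other filters, the deep libraries, a replicate block, summed copies, line sums, and 1 tumor left out. Leaving out whole lines was added after seeing the data. Levels, per-line changes (log2 of normalized count plus 1) and correlations use DESeq2 size factors. The fits were tested on simulated data. Nothing says how replicates were raised, so p-values measure the spread between these tumors.

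The members, lists and tests were chosen with earlier results of these data known. Named were all members, the 6 largest called genes of the complement list outside them, the near-identical copies, and the genes most like each member (5 for C3, 1 for the others) among genes whose normalized count averaged at least 100. Of the listed genes, Mbl1, Mbl2, Fcnb, C8a, C8b, C4bp and Cd55b were not analysed here, nor were the markers Apoa1, Ttr and Fdcsp. All 11 replicate pairs differed beyond sampling noise (chi-square over its degrees of freedom 9.16 to 122.98).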

Additional observations from a re-analysis of the deposited data

Results flagged for a closer look

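Dixon's ratio at the 95% level was taken in 36 groups of 5 or 6 tumors (9 genes in 4 groups of class and antibody). By it 5 values lay far from the others of their group, and 1 tumor held 2 of them. Chance flags about 1 in 20 groups, or 1.8 of 36. In R aPD1 tumors the CC002F1 tumor of replicate 1 was the highest for C1ra at 1877 normalized counts, with the next at 1326, and for C1s1 at 1434, with the next at 777. That tumor was also the highest R aPD1 tumor for Serping1 at 1777. It was the highest of that group for the fibroblast genes Col1a1 at 20280, Postn at 5062, Bgn at 3888 and Lum too, and Col1a1 was at most 8828 in the other R aPD1 tumors. Of the other listed fibroblast markers, Pdgfra at 7240 and Dcn at 25910 were below replicate 2 of CC002F1 aPD1, at 8330 and 28040. The part of fibroblasts in the values of replicate 1 was not tested. In NR aPD1 tumors the lowest C3, 1369 in CC079F1 replicate 2, was below the next at 1906, and the highest C1s1, 1033 in the single CC080F1 tumor, was above the next at 656. In NR isotype tumors the highest Serping1, 612 in CC080F1 replicate 1, was above the next at 268, and the isotype class difference of Serping1 without that tumor is given above.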

How the results depend on the processing

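Members called higher in R over all tumors, 5 by default, were 2 in the deep libraries, 3 with line as a random effect and 2 on line sums. They were 3 without CC001F1 or without CC036F1. All genes called in either direction, 2548 by default, were 1668, 1622, 1207, 1686 and 1827 in the same order. In isotype tumors the 1 call became 0 with edgeR, in the deep libraries and with line as a random effect, where 30, 44 and 3 of all genes were called, and it became 3 without CC075F1, 4 without CC080F1, and 1 to 3 without 1 tumor. Without CC080F1 the isotype Cfb difference turned from -0.06 to 0.89. In aPD1 tumors the 2 calls became 0 with line as a random effect, 5 on line sums, 1 without CC036F1, and 2 to 4 without 1 tumor. All genes called, 1361 by default, were 199, 995 and 1062 in the same order, single tumors aside. For the antibody in R lines the 2 calls became 0 with edgeR, 7 without CC001F1, 0 without CC002F1, 1 without CC075F1, and 1 to 7 without 1 tumor. All genes called, 826 by default, were 0, 909, 210 and 395 in the same order, single tumors aside. The causes were not tested. Host line calls, 6 by default, ran from 5 to 7 over all alternatives. Where 0 members passed, 3 to 7 were under an unadjusted p of 0.05, except 2 in the deep isotype libraries, where C1s1 was lower. TMM scaling, both filters and summed copies left every count of calls as it was, except 7 by host line with TMM.

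Replicate numbers are shared by labels only. Same-numbered isotype and aPD1 tumors of a line had deviations that correlated from -0.202 to 0.368 over 5 lines. The replicate block gave 3 calls in isotype tumors (C3, Cfp and Serping1) and 7 by host line, and it changed none of the other counts of calls. The within-line correlation in limma was 0.0152 for all tumors together, 0.0622 for isotype and 0.099 for aPD1 tumors. The lowest count of any member in any library was 83, for Serping1.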
